A study of Mus musculus with 20 samples.

Results

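The heat shock and chaperone genes described here were 9 genes, Hspa1a, Hspa1b, Hspa8, Hsp90aa1, Hsp90ab1, Hsph1, Dnajb1, Hspb1 and Hspa5, chosen by symbol out of the 39179 genes counted in the striatum of 20 male mice. All 9 were above 1 CPM (a gene's counts scaled to the library size) in 3 or more mice, and so were among the 14792 genes tested. The mice were of generation 17 of a breeding experiment that began with a cross of 8 inbred strains and were about 6.5 months old. The High-Active line was bred for distance travelled in the home cage, and the breeders of the Control line were picked at random. Mice of each line were injected intraperitoneally with saline or with 0.25 mg/kg amphetamine. Brains were collected 2 hours later, and the dorsal and ventral striatum of both hemispheres was dissected from a coronal slice. Line and treatment together made 4 groups of 5 mice. Each line is a single bred line, so a difference that follows selection cannot be told apart from one that follows drift.

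Chaperones hold other proteins while they fold and pass damaged ones on for repair or degradation. HSP70 and HSP90 proteins spend ATP to do so, HSP40 proteins deliver clients to HSP70, and HSP110 proteins reset it. After heat or protein damage, the transcription factor HSF1 binds arrays of the letters GAA in alternating direction, the heat shock element, and the stress-inducible genes rise within hours. BiP, the HSP70 of the endoplasmic reticulum, is instead controlled through the unfolded protein response and its own element. In neurons HSC70, the constitutive HSP70, also strips clathrin from synaptic vesicles after endocytosis.

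Promoter stretches that match the letters of the heat shock element, or of the element of the unfolded protein response, are shown first. Whether these matches control the genes was not tested. RefSeq windows of 300 bases on GRCm38.p6, 250 before and 50 after the start of transcription, were matched for 6 of the 9 genes and searched on both strands for GAANNTTC and TTCNNGAA, each of which is its own reverse complement, and for the endoplasmic reticulum stress element, CCAAT and CCACG with any 9 bases between. In the stretches below, 5′ to 3′ on the strand of the gene, capitals mark the matches. The stretches of Hsph1 and Hspa5 are short because a GENCODE transcript of each gene begins upstream of the RefSeq start. Those of Hspa1a (chr17:34972223-34972290, minus strand) and Hspa1b (chr17:34959305-34959372, minus strand) match 104 bases before the start, that of Hsph1 (chr5:149636351-149636380, minus strand) 33 bases before the more upstream of its starts, those of Hspb1 (chr5:135887772-135887859, plus strand) 117 and 97 bases before the start, and that of Hspa5 (chr2:34772020-34772048, plus strand) 65 bases before the start.
Hspa1a: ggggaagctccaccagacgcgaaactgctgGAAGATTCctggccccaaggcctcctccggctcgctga
Hspa1b: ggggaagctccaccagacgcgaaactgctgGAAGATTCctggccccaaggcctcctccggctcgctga
Hsph1: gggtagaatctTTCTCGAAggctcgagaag
Hspb1: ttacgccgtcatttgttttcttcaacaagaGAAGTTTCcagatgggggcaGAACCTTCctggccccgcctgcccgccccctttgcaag
Hspa5: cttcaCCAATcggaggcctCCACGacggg

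The windows of Hspa1a and Hspa1b differed at 4 of 300 bases and were identical over the stretch shown. The letters GAANNTTC are found in 7.86% of all 32851 RefSeq windows and TTCNNGAA in 8.52%, so a single match is common. An unbroken run of 3 alternating units was found in 0.603% of all windows. Of the 6 matched members Hsph1 alone had such a run, just after its RefSeq starts. The stress element of the endoplasmic reticulum was found in 0.119% of windows, and of the 6 matched members in that of Hspa5 alone. The windows of Dnajb1 had none of these letters, which says only that they were not within those 300 bases.

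Before any comparison, the libraries were checked for relatedness, tissue and shared reads. Reads counted on genes ranged from 32388971 to 53710713 per mouse, and members had between 89 (Hspb1) and 73959 (Hsp90ab1) counts in a mouse, so counting error was small beside the spread between mice. The labels name the parents: 4 of the 10 Control mice and 9 of the 10 High-Active mice shared both parents with another mouse of their line. The study's methods instead describe the mice of a line as coming from separate families, so the sources disagree, and every statement on families here rests on the sire and dam given in the labels. Markers of striatal medium spiny neurons were present in every mouse, with a summed level of 4397 to 7244 CPM over 10 genes. The 10 markers of cortical excitatory neurons were also detected, none at 0, with sums of 331 to 907 CPM in Control mice and 177 to 1047 CPM in High-Active mice. Their median line difference was -0.71 on the log2 scale, and 3 of the 10 (Slc17a7, Neurod2 and Tbr1) were lower in High-Active mice at an adjusted p under 0.1. Markers of other cell types differed between lines as well, with 2 of 10 oligodendrocyte markers higher, 3 of 8 astrocyte markers higher and 1 lower, 2 of 8 microglial markers lower, and 1 of 9 endothelial and 1 of 5 blood markers higher. None of the 10 medium spiny neuron markers and none of the 8 choroid plexus markers passed. In bulk tissue, fewer cells of a type and less RNA per cell cannot be told apart.

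Per kilobase of exon, the members spanned a wide range of levels. Hsp90ab1, the constitutive cytosolic HSP90, was highest at 498 ± 37.0 CPM per kb (mean ± SD, n = 20 mice). Hspa8, which encodes HSC70, followed with 233 ± 38.3 CPM per kb, and Hsp90aa1, the inducible HSP90, with 227 ± 21.8 CPM per kb. At the exon lengths used, these neighbours could not be ordered, since Hspa8 was above Hsp90aa1 in 9 of 20 mice. Hspa5, which encodes BiP, had 95.0 ± 16.4 CPM per kb, Hsph1, which encodes HSP110, 63.0 ± 9.35 CPM per kb, and Dnajb1, an inducible HSP40, 18.5 ± 3.36 CPM per kb. The inducible genes of the small heat shock protein HSP25 (Hspb1) and of HSP70 (Hspa1b and Hspa1a) were lowest, with 4.25 ± 1.58, 2.35 ± 1.15 and 1.81 ± 0.778 CPM per kb. Hspa1b was above Hspa1a in 18 of 20 mice, and each gene at any other step of the order was above the next in all 20. The length of a gene was that of all its annotated exons merged, and the order holds for these lengths only. It was 4.301 kb for Hspa8, 3.931 kb for Hsp90aa1, 4.229 kb for Hspa5 and 7.266 kb for Hsph1. Their longest coding transcripts have 2394, 3281, 3672 and 3802 bases, and levels by those lengths were not compared.

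**Figure D1:**
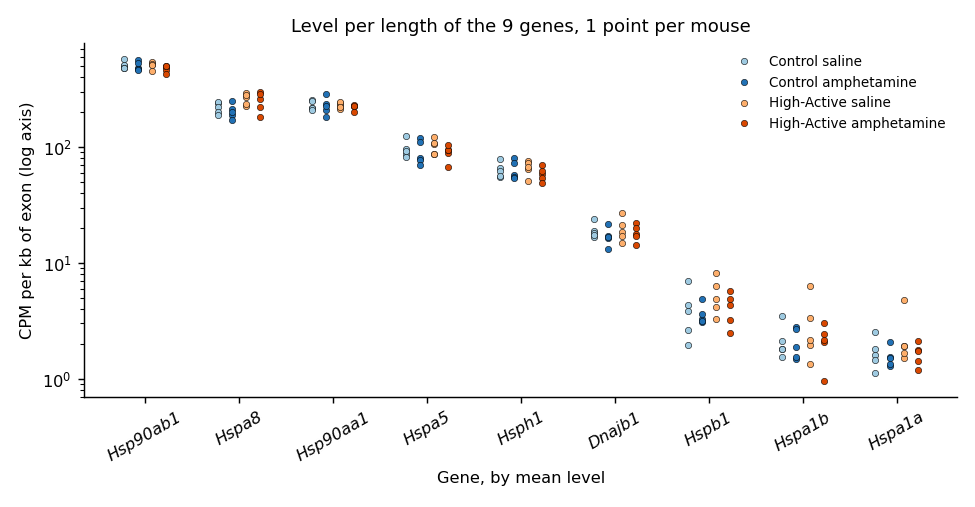
Level of each of the 9 genes in CPM per kb of exon on a log axis, with 1 point for each of the 20 mice, coloured by group, and genes ordered by mean level. The constitutive genes Hsp90ab1 and Hspa8 and the inducible Hsp90aa1 lie between 171 and 576 CPM per kb, and Hspa1a and Hspa1b between 0.958 and 6.35 CPM per kb.

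Some of these levels depend on how reads from copies were placed. Of the stretches of 100 bases in the longest transcript of Hspa1b, 49.9% also occurred in Hspa1a, its neighbour on chromosome 17, and these genes are uncertain relative to each other. For Hspa8, 63.4% of the stretches occurred in transcripts of other genes, for Hsp90aa1 47.5% and for Hspb1 42.7%, and the leading sharers were unnamed Gm loci for the first pair and the pseudogene Hsp25-ps1 for Hspb1. Hsp90ab1, Hsph1, Dnajb1 and Hspa5 shared none. Hspa1a also overlaps Gm20481 on the opposite strand, and Hspa8 holds the snoRNA genes Snord14c, Snord14d and Snord14e within its span.

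The comparison of the lines asked which genes differ in mice bred for activity. Of the 9 members, 1 was called at an adjusted p under 0.1 (edgeR quasi-likelihood test, Benjamini-Hochberg), where 14.5% of all genes tested were called, so the share of members called was near that of the transcriptome. The called gene was Hspa8, on chromosome 9 (GRCm38, chr9:40800984-40810087). In Control saline mice it had 813, 869, 952, 1019 and 1049 CPM, and in Control amphetamine mice 734, 806, 863, 918 and 1081 CPM. In High-Active saline mice it had 965, 1010, 1164, 1198 and 1249 CPM, and in High-Active amphetamine mice 776, 944, 1115, 1221 and 1271 CPM. The lines overlapped, but 6 of 10 High-Active mice were above every Control mouse and 9 of 10 were above the Control median. The fitted difference was 0.26 on the log2 scale (SE 0.088, 95% CI 0.08 to 0.45, adjusted p = 0.07356), a level 1.20-fold higher in High-Active mice.

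The call for Hspa8 was close to the threshold and was lost in several fits that left out 1 mouse or 1 family. Without each mouse in turn, the difference was 0.23 to 0.31 and the adjusted p 0.02715 to 0.129, and the call was lost without any of 9 mice, the Control mice 369, 454, 457 and 883 and the High-Active mice 415, 499, 871, 872 and 905. The High-Active mice 499, 871 and 872 have the same sire and dam and had 1249, 1198 and 1271 CPM, all among the 4 highest of the line. Without these 3 the difference was 0.18 and the adjusted p 0.2942. This family was picked after seeing the data and has high values, so leaving it out had to lower the difference. The fit also had fewer mice, and the genes called between lines fell from 2149 to 1023. With family as a block in limma-voom the difference over all 20 mice was 0.26 with an adjusted p of 0.08814. That block uses 1 family correlation for all genes, 0.026, so it hardly adjusts for relatedness and cannot decide whether the call rests on a family. With cortical and oligodendrocyte marker scores as covariates the Hspa8 difference was 0.29 with an adjusted p of 0.0922. The share of counts on mitochondrial genes was 9.07% to 10.4% in Control mice and 9.68% to 12.6% in High-Active mice. These shares overlapped between the lines, with a higher median in High-Active mice. Median line differences were 0.18 for oligodendrocyte, 0.14 for astrocyte, 0.66 for choroid plexus (8 of 8 positive) and 1.05 for blood markers (5 of 5 positive). The parts of the mitochondrial share and of the astrocyte, choroid plexus and blood markers in the Hspa8 difference were not tested.

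The transcript of Hspa8 has stretches in common with a processed pseudogene, Gm8355, on chromosome 10, and the counts of the pseudogene relative to Hspa8 were uneven among High-Active mice. Reads of Hspa8 placed on the pseudogene and transcription of the pseudogene itself cannot be told apart in these counts. The counts given to Gm8355 were 5.04% to 6.02% of those given to Hspa8 in the 10 Control mice. In the High-Active mice they ran from 2.15% in mouse 872 to 9.04% in mouse 871, of the same parents, with 8.48% in mouse 499 and 8.60% in mouse 197. Gm8355 itself was higher in High-Active than in Control saline mice by 0.70 (SE 0.20, adjusted p = 0.07911), and in amphetamine mice the difference was -0.06 (SE 0.20, adjusted p = 0.9131). The highest and the lowest share were both in the family whose removal ended the call. With the counts of Hspa8 and Gm8355 added together, the line difference was 0.27 (SE 0.087, adjusted p = 0.06409), as large as for Hspa8 alone. Of the 9 genes that share stretches with Hspa8, 2 were found by symbol among the genes counted, and Gm8355 alone was added. Gm15459, which shares the most (58.5% of the stretches), was not found, so the sum cannot settle how shared reads bear on the difference.

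The other members did not pass the test between lines. Values per group are shown in the plot of CPM by mouse. The inducible HSP70 genes differed by 0.28 (Hspa1a, SE 0.20, adjusted p = 0.3951) and 0.27 (Hspa1b, SE 0.26, adjusted p = 0.536) on the log2 scale, and Hspb1 by 0.32 (SE 0.22, adjusted p = 0.3644). Their confidence intervals reached from -0.14 to 0.70, from -0.27 to 0.81 and from -0.13 to 0.77, so a difference of the size seen for Hspa8 was not excluded for any of these 3. Intervals were narrower for the abundant HSP90 genes, with -0.02 for Hsp90aa1 (95% CI -0.15 to 0.11) and -0.04 for Hsp90ab1 (95% CI -0.14 to 0.06). For Hsp90aa1 and Hsp90ab1 the interval lay below the 0.26 measured for Hspa8. That value has its own interval, 0.08 to 0.45, and the genes were not tested against each other. Hsph1 differed by -0.03 (SE 0.092), Dnajb1 by 0.08 (SE 0.11) and Hspa5 by 0.03 (SE 0.11), with adjusted p values of 0.6977 to 0.9057. Their intervals were -0.23 to 0.16, -0.15 to 0.30 and -0.20 to 0.25. That of Dnajb1 also held the value measured for Hspa8. The median over the 9 members was 0.08, beside 0.00 over all genes tested, and 6 of 9 were positive.

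**Figure D2:**
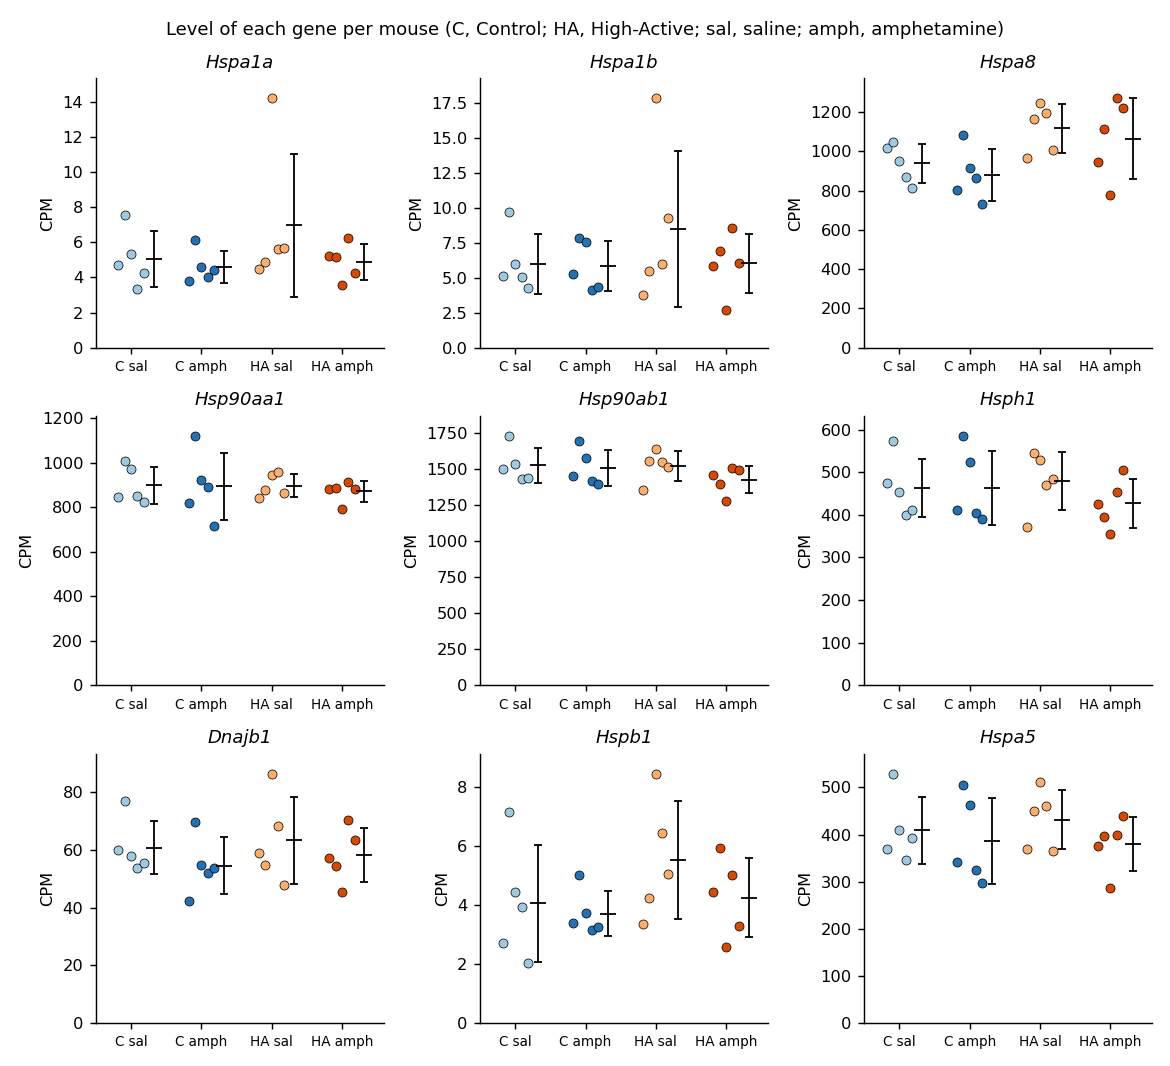
Level of each gene in CPM (y axis, from 0) in the 4 groups (x axis), 1 point per mouse, with the mean and SD of the 5 mice beside the points. Hspa8 lies higher in the High-Active groups with overlap, and 1 High-Active saline mouse stands apart at 14.2 CPM for Hspa1a and 17.8 CPM for Hspa1b.

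Within treatments, no member passed the test between lines. In saline mice the count was 0 of 9 members, where 3.74% of genes were called by edgeR, and in amphetamine mice it was 0 of 9, where 1.3% were called. DESeq2, limma-voom and the likelihood-ratio test also called 0 members in each. In saline mice they called 1111, 508 and 1091 genes, and in amphetamine mice 462, 188 and 506. At an unadjusted p under 0.05 there were 0 members in saline mice, beside 2573 of all 14792 genes. In amphetamine mice there was 1, Hspa8, beside 1870 of all 14792 genes. The Hspa8 difference was 0.25 in saline mice (SE 0.12, adjusted p = 0.3147) and 0.28 in amphetamine mice (SE 0.12, adjusted p = 0.3697), and the interaction, 0.03 (SE 0.18), did not pass the test. For Hspa1a the difference in saline mice was 0.47 (SE 0.28, adjusted p = 0.4066), and without mouse 499 it was 0.03. For Hspa1b it was 0.50 (SE 0.36, adjusted p = 0.5136), and without mouse 499 it was 0.03.

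The comparison of treatments asked whether the low dose of amphetamine changed expression 2 hours later. No member passed the test, 0 of 9, where 0% of genes were called by edgeR (1844 of 14792 had an unadjusted p under 0.05, and no member did). DESeq2 called 391 genes and the likelihood-ratio test 458, neither with a member among them. All 9 estimates were below 0, where 53.02% of all genes were, but members that vary together among mice are not separate observations of a direction. The estimates ran from -0.32 for Hspa1a (SE 0.20, adjusted p = 0.5211) to -0.02 for Hsp90aa1 (SE 0.063, adjusted p = 0.9073), with a median of -0.13 beside -0.01 over all genes. The intervals of Hsp90ab1 (-0.16 to 0.04) and Hsp90aa1 (-0.16 to 0.11) were narrow, whereas that of Hspa1b reached from -0.81 to 0.27.

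Mice of the same sire and dam fell on both sides of the treatment in 6 families, 2 Control and 4 High-Active, with 13 mice. An edgeR fit with parents as a block was chosen after seeing the data. For amphetamine 0 of 9 members passed, and 1 of 14792 genes was called. No member had an unadjusted p under 0.05, beside 635 of the 14792 genes. The fit left 5 residual degrees of freedom, so its lack of calls says little. The estimates within families ran from -0.26 for Hspa1a (SE 0.23) to 0.06 for Hsp90aa1 (SE 0.052), and 8 of 9 were negative.

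The inducible HSP70 genes had their largest estimates in High-Active mice, and these rested on 1 animal. In High-Active saline mice Hspa1a had 4.45, 4.90, 5.63, 5.65 and 14.2 CPM, and in High-Active amphetamine mice 3.55, 4.24, 5.17, 5.24 and 6.24 CPM. In the Control groups it had 3.35, 4.26, 4.72, 5.34 and 7.56 CPM after saline and 3.79, 3.99, 4.44, 4.60 and 6.14 CPM after amphetamine. The groups overlapped throughout, apart from mouse 499 at 14.2 CPM. For Hspa1b the High-Active saline mice had 3.77, 5.45, 6.00, 9.28 and 17.8 CPM and the High-Active amphetamine mice 2.69, 5.87, 6.08, 6.87 and 8.55 CPM, and mouse 499 was again the highest. The amphetamine difference in High-Active mice was -0.51 for Hspa1a (SE 0.28, adjusted p = 0.6603) and -0.50 for Hspa1b (SE 0.36, adjusted p = 0.78). Without mouse 499 these became -0.08 and -0.03. With the counts of Hspa1a and Hspa1b added together the amphetamine difference over both lines was -0.29 (SE 0.22, adjusted p = 0.6328), between the values of the separate genes.

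Within lines, 0 of 9 members passed in Control mice, where 0% of genes were called by edgeR (940 at an unadjusted p under 0.05, 6 by DESeq2 and 45 by the likelihood-ratio test), and 0 of 9 in High-Active mice, where 0% were called (1247, 131 and 280). No member had an unadjusted p under 0.05 in either line. For the line by treatment interaction the count was 0 of 9, where 0% of genes were called (440 at an unadjusted p under 0.05, 0 by DESeq2 and 6 by the likelihood-ratio test). Every member had an adjusted p of 1, and the estimates ran from -0.45 for Hspa1b to 0.04 for Dnajb1. The intervals of the interaction were wide, from -1.53 to 0.63 for Hspa1b and from -0.28 to 0.12 for Hsp90ab1, so responses that differ between the lines were not detectable at this number of mice unless large.

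The 10 cortical markers had a median amphetamine difference of 0.91, and none passed the test. With cortical and oligodendrocyte scores as covariates, the amphetamine estimates of 4 members, Hspa8, Hsp90aa1, Hspb1 and Hspa5, turned positive (0.01, 0.04, 0.19 and 0.02), and none passed. Choroid plexus markers had a median amphetamine difference of -0.53 (8 of 8 negative) and blood markers of -0.73 (5 of 5 negative), and none of these passed either. Their part in the members' estimates was not tested.

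**Figure D3:**
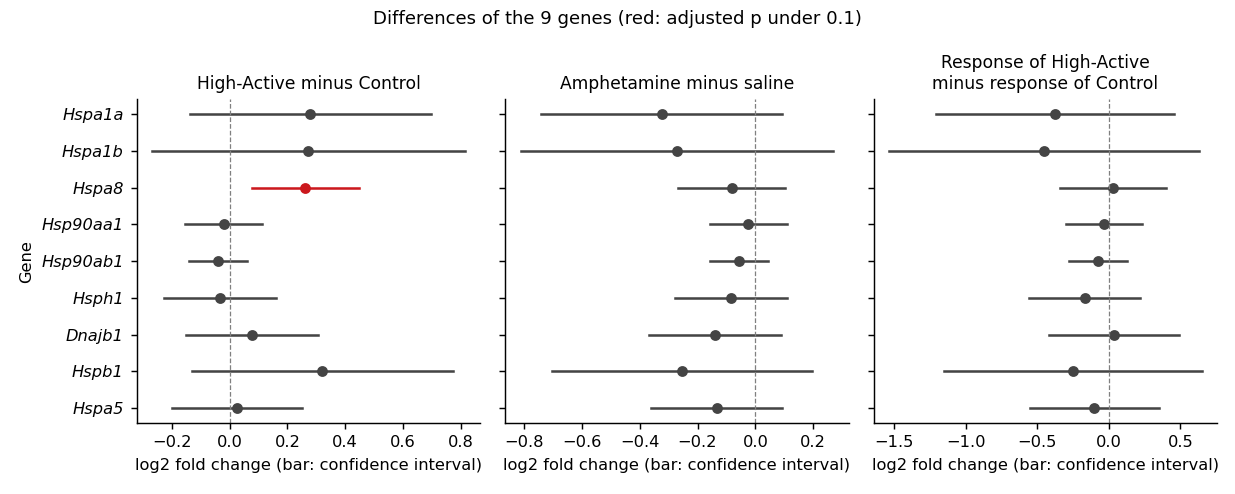
Log2 fold change (x axis, point) with its 95% CI (bar) for each gene in the comparison of lines, of treatments and of their interaction. The interval of Hspa8 between lines, 0.08 to 0.45, is the one drawn in red for an adjusted p under 0.1, and every interval for amphetamine and for the interaction spans 0.

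The pattern that the members shared was among mice of the same group. After the group mean was removed, all 36 pairs of members were positively correlated over the 20 mice, with Pearson r from 0.545 (Hsph1 and Hspb1) to 0.953 (Hsp90ab1 and Hsph1) and a median of 0.732. Spearman rho ran from 0.472 to 0.943. In a permutation test of mice within groups (100000 draws, two-sided), all 36 pairs had an adjusted p under 0.05, the highest being 0.01697 for r and 0.04642 for rho, and the smallest raw p was 1e-05, the smallest these draws can give. The test takes mice of a group as exchangeable, which mice that share parents may not be. When the 2 mice with the most extreme values of a pair's first gene were dropped, r was 0.434 to 0.931.

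The other genes tested give the background for these values. Over the 14783 tested genes outside the set, the median r with each member lay between -0.011 and 0.005. The median r of Hsp90ab1 with the other members was 0.820, and 0.176% of the other genes had a higher r with it. For Hspa5, whose median r with the other members was 0.789, the share was 0.277%, and for Hsph1, with 0.724, it was 1.32%. Members of separate compartments thus varied together, since Hspa5 had an r of 0.911 with Hsp90ab1 and 0.870 with Hsph1. All libraries shared 1 pool and the values share the normalization, so r is a description of these libraries.

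**Figure D4:**
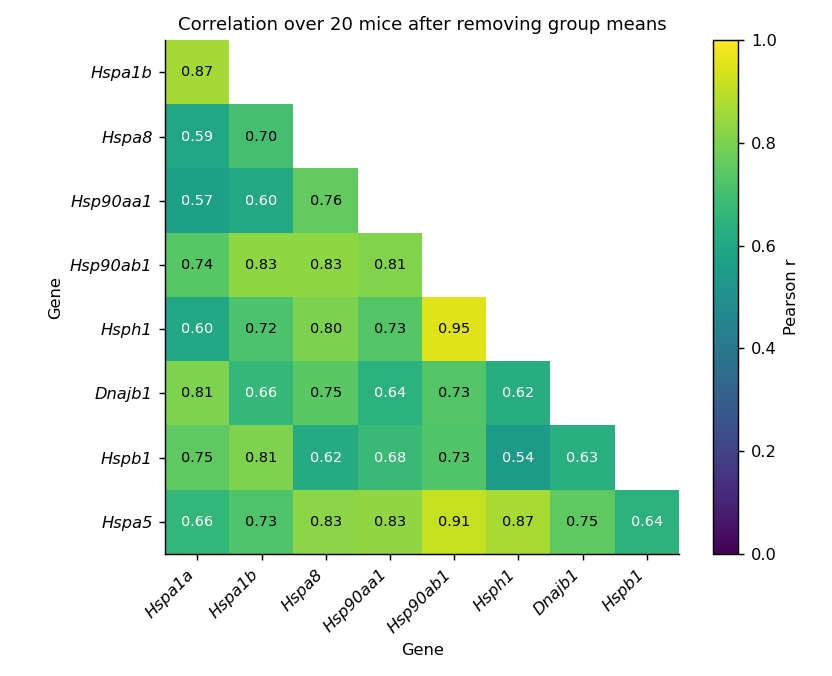
Pearson r between each pair of members over 20 mice, from log2 CPM with the group mean removed; colour and number give r. Every pair is above 0, from 0.54 for Hsph1 and Hspb1 to 0.95 for Hsp90ab1 and Hsph1.

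The same mice were high or low for nearly every member. In Control mice, 448 (saline) and 407 (amphetamine) had the highest value of their group for 9 of 9 members, and these mice have the same sire and dam. Mouse 448 had 530 CPM of Hspa5 and 1728 CPM of Hsp90ab1, and mouse 407 had 505 and 1694 CPM, where the other Control mice had 297 to 463 and 1393 to 1573 CPM. In High-Active saline mice, 499 was highest for 7 members and 197 was lowest for 7. In High-Active amphetamine mice, 487 was lowest for 9 of 9 members and 872, of the same parents as 499, was highest for 6. Averaged over the members, log2 CPM was 0.43 above the group mean in mouse 448, 0.37 in mouse 407 and 0.49 in mouse 499, and it was 0.43 below in mouse 487 and 0.35 below in mouse 197.

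Mice of the same parents were not alike throughout. Mouse 483, from the same parents as 487, was 0.10 below its group mean, and mouse 905, from the same parents as 197, was 0.06 above. The pair 411 and 409 had -0.08 and 0.13, and 871, the third of the family of 499, had 0.04. All 36 pairs stayed positive within each line and without each family, with lower values when both families were left out. In Control mice the 36 values of r were 0.613 to 0.978, and in High-Active mice 0.403 to 0.920. Without mice 407 and 448 they were 0.343 to 0.927, without 499, 871 and 872 they were 0.473 to 0.965, and without all 5 they were 0.036 (Dnajb1 and Hspb1) to 0.951 (Hsp90ab1 and Hsph1) with a median of 0.556.

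**Figure D5:**
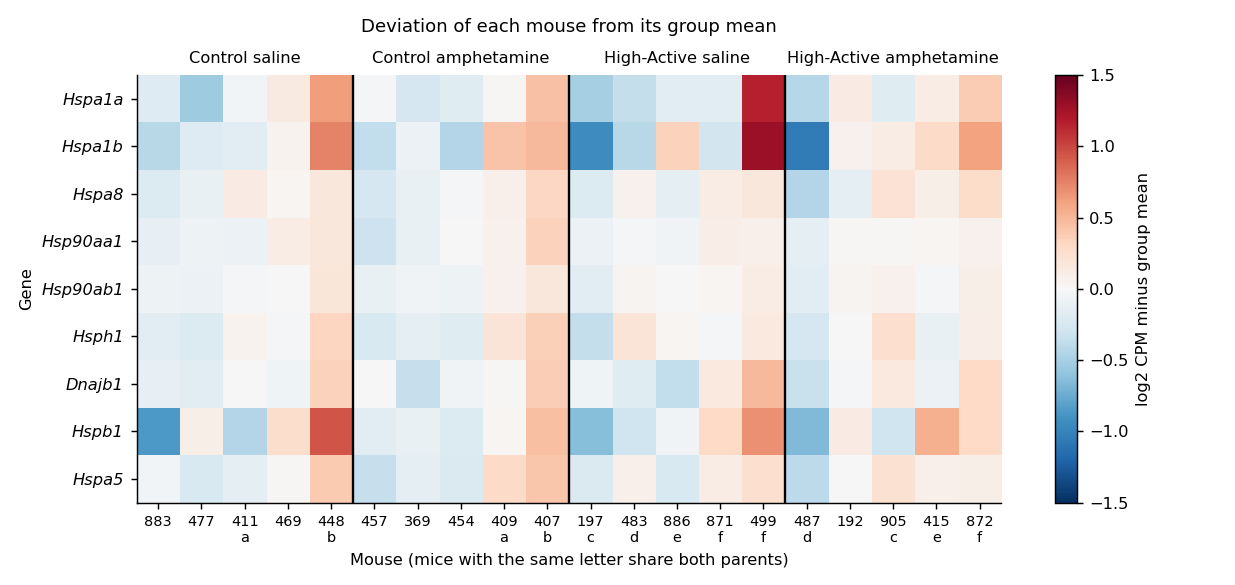
Log2 CPM minus the group mean (colour) for each gene (rows) in each mouse (columns), ordered within groups by the mean over genes, with the same letter under mice that share both parents. Columns 448, 407 and 499 are high for most genes and 487 and 197 are low.

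Over all 20 mice the spread was largest for the inducible HSP70 genes and Hspb1, whereas the inducible Hsp90aa1 was among the least variable. The coefficient of variation over the 20 mice was 49.1% for Hspa1b, 43.0% for Hspa1a and 37.3% for Hspb1, beside 18.2% for Dnajb1, 17.3% for Hspa5, 16.5% for Hspa8, 14.8% for Hsph1, 9.60% for Hsp90aa1 and 7.43% for Hsp90ab1. The values of the HSP70 genes include High-Active saline mouse 499. In the 10 amphetamine mice the value was 31.4% for Hspa1b, 27.0% for Hspb1 and 19.7% for Hspa1a, beside 19.4% for Hspa8. In the 10 Control mice it was 31.4% for Hspa1b, 36.8% for Hspb1 and 25.8% for Hspa1a, beside 19.8% for Hspa5. From the lowest to the highest mouse, Hspa1b varied 6.63-fold and Hsp90ab1 1.35-fold. Over all 20 mice the order of spread was close to the reverse of the order of levels. The lowest counts in a mouse were 151 for Hspa1a, 148 for Hspa1b and 89 for Hspb1.

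Each member was compared with all tested genes outside the set. For 5 of the 9 members at least 1 of the 2 genes most like it was a chaperone or a chaperone partner. This label was given after the neighbours were seen, and Chordc1 and Stip1 recurred among them, so the count is a description. Of the 14783 other genes, 96 were in the chaperone lists described below. Hsp90ab1 was most like Dnaja1 (r = 0.916), an HSP40 gene, and Chordc1 (r = 0.915), which encodes an HSP90-binding protein. Hspa8 was most like Chordc1 (r = 0.854) and an Ensembl gene without a symbol (ENSMUSG00000045365, r = 0.847). Hsp90aa1 was most like Stip1 (r = 0.900), which joins HSP70 to HSP90, and Hyou1 (r = 0.882), an HSP110-like chaperone of the endoplasmic reticulum. Hspa5 was most like Manf (r = 0.949), a secreted protein induced by stress of the endoplasmic reticulum, and Chordc1 (r = 0.943). Hspb1 was most like Ahsa2 (r = 0.830), an activator of HSP90, and Stip1 (r = 0.795).

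The remaining members had other neighbours. Hsph1 was most like Papola (r = 0.932), a poly(A) polymerase, and Bcl2 (r = 0.919), and Dnajb1 was most like Mtmr4 (r = 0.898) and Mcl1 (r = 0.874), Bcl2 and Mcl1 being survival factors of 1 family. Hspa1a was most like Nr4a3 (r = 0.787), an immediate-early nuclear receptor, and Mrm3 (r = 0.781). Hspa1b was most like Rnf216 (r = 0.851) and Txlna (r = 0.812). Each r is the highest among 14783 genes over 20 mice. None of these neighbours was called between lines by edgeR, with adjusted p values of 0.1944 and above.

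Over the wider chaperone system, 96 other genes in 6 lists were tested, of which few differed by line. Between lines 3 were higher in High-Active mice and 6 were lower, 9.38% of the 96 beside 14.5% of all genes. The higher genes were Hspb8, a small heat shock protein that works with Bag3 in autophagy (0.65, SE 0.13, adjusted p = 0.007309), Ptges3, which encodes the HSP90 co-chaperone p23 (0.36, SE 0.072, adjusted p = 0.006469), and Dnajb9, a BiP co-chaperone (0.12, SE 0.041, adjusted p = 0.08257). The lower genes were Dnajc7, Dnajb6, Bag4, Rpap3, Pfdn6 and Grpel2, with differences of -0.25 (Pfdn6, a prefoldin subunit) to -0.08 (Dnajb6, an HSP40 that keeps aggregation in check). By list, 3 of 29 HSF1-regulated and cytosolic HSP70 and HSP40 genes, 1 of 4 small heat shock proteins, 2 of 15 HSP90 co-chaperones, 1 of 14 TRiC and prefoldin subunits, 1 of 24 genes of the endoplasmic reticulum and 1 of 10 mitochondrial chaperones passed. Hsf1 itself differed by -0.02 (SE 0.046, adjusted p = 0.7765).

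For amphetamine and for the interaction 0 of the 96 passed, where 0% of genes were called. The median amphetamine difference of the 96 was -0.04 beside -0.01 over all genes. Of the 96, 71 were negative, where 53.02% of all genes were. As for the members, genes that vary together among mice are not separate observations of a direction. All 14 TRiC and prefoldin genes and 20 of 24 genes of the endoplasmic reticulum were negative, with medians of -0.04 and -0.05. At an unadjusted p under 0.05 there were 14 of the 96, 9 of them negative, beside 1844 of all 14792 genes. The lowest adjusted p of the 96 was 0.1662. For the interaction 0 of the 96 were at an unadjusted p under 0.05, beside 440 of all 14792 genes. The amphetamine estimate of Hsf1 was -0.08 (SE 0.046, adjusted p = 0.4748).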

How the data were processed

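Striatal RNA of 20 mice was made into stranded libraries, pooled and sequenced by the authors as paired reads. The authors deposited raw counts of reads per gene, without normalization. Per the labels the submitters' processing notes name CASAVA 1.8.2, TopHat2 2.0.10, Bowtie2 2.1.0, SAMtools 0.1.19, HTSeq 0.6.1 and GRCm38. The strand setting of the counting is not given in the sources used here.

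Here the deposited counts were filtered (over 1 CPM in at least 3 mice), TMM-normalized with library sizes summed over the genes kept, and tested with edgeR 4.0.16 (quasi-likelihood F test, R 4.3.3) in 1 model with 4 group means, as in the study's design of line, treatment and interaction, with Benjamini-Hochberg adjustment over 14792 genes within each effect and a threshold of 0.1. The library sizes were first taken over all genes. They were changed after the counts of calls were seen, and both settings are compared below. Alternatives used DESeq2 1.42.0, limma 3.58.1 and edgeR's likelihood-ratio test with robust dispersions. The models and the permutation test were tested on simulated data. CPM in the text are TMM-scaled, log2 CPM has a prior count of 2, and lengths and positions are from GENCODE vM21 (GRCm38). Promoter windows are from RefSeq.

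Rows for reads on no feature, ambiguous or not unique were left out of library sizes (8.17% to 9.55%, 1.39% to 1.66% and 5.70% to 7.01% of reads). Named genes were the members, Hsf1, up to 4 called genes of each chaperone list and the 2 genes most like each member. Gm8355, its sum with Hspa8, the sum of Hspa1a and Hspa1b, the leaving out of families and the fit with parents as a block were chosen after seeing the data. The members and lists were chosen with earlier results of these data known. The p-values take mice as independent, although many share parents.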

Additional observations from a re-analysis of the deposited data

Results flagged for a closer look

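In 3 of the 36 combinations of member and group, the highest or the lowest mouse stood farther from the other 4 than Dixon's test allows at the 95% level, and chance flags about 1 in 20 such groups. Hspa1a was 14.2 CPM in High-Active saline mouse 499, where the other 4 mice had 4.45 to 5.65 CPM. Hsp90aa1 was 792 CPM in High-Active amphetamine mouse 487, where the other 4 had 884 to 912 CPM. Dnajb1 was 76.9 CPM in Control saline mouse 448, where the other 4 had 53.8 to 60.1 CPM. These mice were also at the same end of their group for most other members.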

How the results depend on the processing

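Of the 281 values of members between lines under the alternatives, 251 kept their direction and side of the threshold 20 changed sign, all for members that did not pass, and in 10 Hspa8 lost its call. For amphetamine 283 of 290 did so and for the interaction 263 of 290, with none past the threshold. The cause of the changes below was not tested. With marker scores as covariates the line called 455 genes, 61 in saline mice and 95 in amphetamine mice, its Hsph1 difference was 0.0086, the amphetamine differences were 0.012 for Hspa8, 0.038 for Hsp90aa1, 0.19 for Hspb1 and 0.017 for Hspa5, and the interactions were 0.021 for Hsp90aa1, 0.015 for Hspb1 and 0.036 for Hspa5. DESeq2 called 391 genes for amphetamine, 6 in Control and 131 in High-Active mice, and for the line 1111 in saline and 462 in amphetamine mice. The likelihood-ratio test, the study's kind of test, called 458, 45, 280, 1091 and 506 in the same order and 6 for the interaction, with a line difference of 0.0043 for Hsph1. Over both treatments it called 2269 genes for the line. These are not the study's counts: at the same threshold the study reported fewer genes for the line and for amphetamine, and more for the interaction. Birth date as a covariate gave 858 genes for the line in saline mice and 0.030 for Hsp90aa1. The 10 amphetamine mice alone gave 117 for the line.

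The next alternatives were chosen after seeing the data. Without mice 407 and 448 the line differences were 0.048 for Hsp90aa1, 0.0052 for Hsp90ab1 and 0.058 for Hsph1, the Hsp90aa1 interaction was 0.019, and 124 genes were called in amphetamine mice. Without mice 499, 871 and 872 the line called 1023 genes (96 in saline and 103 in amphetamine mice) and 0 members, with -0.012 for Hspa1a (-0.0098 in saline mice), -0.037 for Hspa1b, -0.079 for Dnajb1 and -0.047 for Hspa5, and the interactions were 0.0100 for Hsp90aa1, 0.067 for Hspb1 and 0.0089 for Hspa5. With parents as a block 1 gene each was called for amphetamine, for amphetamine in Control mice and for the interaction, 0 members, and the amphetamine difference of Hsp90aa1 was 0.057; a line difference cannot be fitted with this block, since each family lies in 1 line. With Gm8355 added, the Hspa8 interaction was -0.015. With library sizes over all genes 2178 genes were called between lines, and the adjusted p of Hspa8 was 0.07203.

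Leaving out each mouse in turn gave 1381 (without mouse 415) to 2535 genes and 0 to 1 members between lines, 187 to 691 genes in saline and 79 to 200 in amphetamine mice, 0 to 339 for amphetamine (339 without mouse 415, 128 without 411, 33 without 197, 20 without 883, 3 without 457), 0 to 3 in Control, 0 to 68 in High-Active mice and 0 to 1 for the interaction. Ranges that crossed 0 were, between lines, -0.055 to 0.026 for Hsp90aa1, -0.068 to 0.014 for Hsph1 and -0.015 to 0.082 for Hspa5, for amphetamine -0.071 to 0.011 for Hsp90aa1, and for the interaction -0.57 to 0.057 for Hspa1a, -0.69 to 0.014 for Hspa1b, -0.040 to 0.12 for Hspa8, -0.10 to 0.063 for Hsp90aa1, -0.059 to 0.18 for Dnajb1 and -0.21 to 0.017 for Hspa5. The correlations were positive for all 36 pairs under every alternative run. The replicate numbers in the labels are animal IDs and pair no mice. With 5 mice a group, differences of the size seen for Hspa1a, Hspa1b and Hspb1 were within their errors.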
